A study of Mus musculus with 4 samples.

Results

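The comparison described here is Sirt6 silencing in YAMC cells that received no cytokine. It rests on 2 of the 4 RNA sequencing libraries of the study, 1 transfected with Sirt6 siRNA and 1 with a control siRNA, both kept in medium alone. It is described across the 10625 of 29179 genes in the table that had at least 200 reads on average in those 2 libraries, since small ratios are well counted there. These genes held 98.3% of the reads of the 2 libraries, and 20549 genes had a read in at least 1 of them. The study, as its title states, sought Sirt6 targets associated with inflammation, so the other 2 libraries carried the same siRNAs and were given tumour necrosis factor (TNF).

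YAMC is a conditionally immortalised mouse line that the labels describe as colonocytes from young adult mice. Cells of passages 10 to 12 were grown at 33 °C with interferon-γ and transfected with 50 nM of siRNA. After 24 h all of them were moved to 37 °C without interferon-γ, and 48 h after transfection they received either medium or TNF at 100 ng/mL for 24 h. Every group therefore shares a history of interferon-γ, transfection and the shift in temperature, and no untransfected cells are among the libraries. The siRNA sequences and the number of siRNAs used are not given in the sources used here. Each group is 1 library, and the sources used here do not say how many cultures it came from, so every difference below compares libraries and not conditions, no p-value is given for a comparison of 2 libraries, and the intervals are 95% intervals of counting error only.

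SIRT6 is a nuclear enzyme that uses NAD to remove acetyl and longer acyl groups from lysines, among them lysines of histone H3 at promoters and telomeres. In mouse and human cells it has been described as holding back glycolytic genes with HIF-1α, sterol genes with SREBP, ribosomal protein genes with MYC, insulin-like growth factor signalling genes with JUN, and NF-kB targets with RELA. In the intestine of mice, loss of SIRT6 has been linked to more severe colitis. These statements are background, and they are the reason why several gene lists below were drawn up.

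The libraries held 22422365 reads with control siRNA and 23749380 with Sirt6 siRNA in medium, and 18793708 and 21755516 with TNF. Levels are normalised RPM, that is counts scaled to library size and by TMM factors, which are not corrected for gene length and are compared only between libraries. Of 30 epithelial markers, 10 had no read in either medium library, among them Epcam, Cdx1, Vil1, Cldn3 and Cldn4, while keratins of simple epithelia (Krt8, Krt18, Krt19) and the cadherin Cdh1 were read. Those 3 keratins are also among the 12 mesothelial markers, of which others were read too, with control and Sirt6 siRNA at 1255 and 1395 normalised RPM for the uroplakin gene Upk3b, 538.7 and 542.4 for mesothelin, Msln, and 223.9 and 248.7 for the transcription factor gene Wt1. Several defining genes of the colon epithelium were thus without reads, and these keratins belong to both marker lists. The epithelial markers summed to 1886 normalised RPM with control siRNA and 1590 with Sirt6 siRNA, the 20 fibroblast markers to 11764 and 12347, the 12 mesothelial markers to 5098 and 5052, the 10 smooth muscle markers to 573.4 and 497.7, the 23 immune markers to 29.7 and 28.5, and the 12 endothelial markers to 88.4 and 82.9. Without the members that rose or fell by the rule given below, the sums were 564.6 and 583.0 for 27 epithelial markers (without Krt7, Krt8 and Krt18), 348.4 and 347.2 for 9 smooth muscle markers (without Acta2), 3827 and 4121 for 10 mesothelial markers (without Krt8 and Krt18) and 11704 and 12267 for 19 fibroblast markers (without Col1a2), so the lower epithelial and smooth muscle sums rest on those keratins and on Acta2. The members left out were picked by their change, and Krt19 alone was at 529.7 and 552.7 in the epithelial remainder. Whether the share of any cell type differed was not tested. In a bulk library, fewer cells of a type and less RNA per cell cannot be told apart.

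Sirt6 itself (ENSMUSG00000034748) was the gene to check first. It had 388 reads with control siRNA and 171 with Sirt6 siRNA in medium, which is 17.2 normalised RPM (exact Poisson interval 15.5 to 18.97) and 7.12 (6.09 to 8.27). The library labelled Sirt6 siRNA thus held 41.7% of the control level (log2 ratio -1.26, -1.54 to -1.01). With TNF the reads were 352 and 150. Of the other 6 sirtuins, 3 had enough reads to be described and none passed a log2 ratio of 0.32 either way. Sirt1, a nuclear deacetylase, was at 11.5 and 9.54 normalised RPM (log2 ratio -0.27, -0.53 to -0.01), the nucleolar Sirt7 at 25.2 and 25.1 (-0.00, -0.17 to 0.16), and the mainly cytoplasmic Sirt2 at 39.8 and 48.3 (0.28, 0.16 to 0.41). The mitochondrial sirtuins Sirt3, Sirt4 and Sirt5 fell short of 200 reads, with log2 ratios of 0.22 (-0.32 to 0.77), 0.30 (-0.04 to 0.65) and 0.30 (-0.30 to 0.95). Rspo1, which encodes a secreted enhancer of Wnt signalling, also fell short, with 97 and 115 reads (log2 ratio 0.15, -0.25 to 0.56).

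Most genes moved little. The log2 ratio of Sirt6 siRNA to control siRNA had a median of -0.009 and an SD of 0.169 across the 10625 genes, and 9957 of them (93.7%) had a log2 ratio within 0.32 of 0 or an interval that held 0. The middle 90% of log2 ratios lay between -0.276 and 0.263. Of the 10625 genes, 47.2% had a log2 ratio above 0, 1846 had an interval wholly above 0 and 2218 one wholly below. Counts of list members above or below 0 in medium are to be read beside these. A gene is said to have risen or fallen here when its log2 ratio was at least 0.32 either way and its interval left out 0. By that rule 314 genes rose, which is 2.96% of those described, and 354 fell, which is 3.33%. Counts of list members that rose or fell are to be read beside these shares. At a ratio of at least 1.5 with the same condition, 26 were higher (0.245%) and 47 lower (0.442%), and at 2-fold 2 were higher and 3 lower. The genes nearest the 1.5-fold threshold were Epb4.1l1 (log2 0.59) inside and Spsb1 (0.58) outside on the higher side, and Stambpl1 (-0.59) inside and Ptp4a3 (-0.58) outside on the lower side. Among the 883 genes with at least 5000 reads on average, 4 rose and 9 fell.

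**Figure D1:**
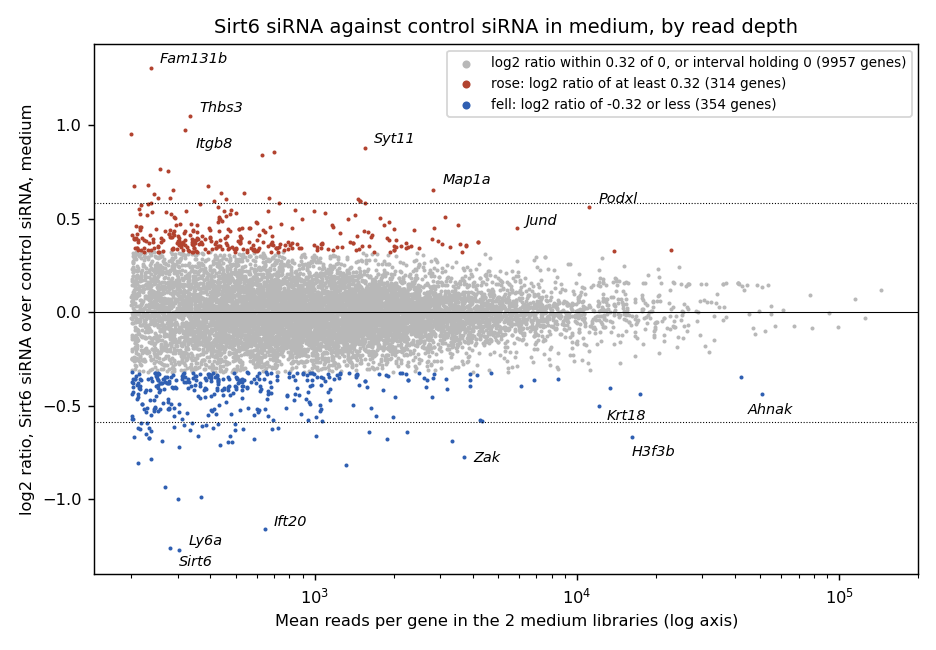
Log2 ratio of Sirt6 siRNA to control siRNA in medium (vertical axis) against the mean reads of the gene in the 2 medium libraries (horizontal log axis), 1 point a gene. Red and blue points are the 314 genes that rose and the 354 that fell, dotted lines mark 1.5-fold, and the band of points narrows toward deeply read genes.

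Genes are called firm here when the interval of their ratio stayed farthest from no change, and 15 were named each way among those past 1.5-fold. On the higher side Fam131b was at 5.75 normalised RPM with control siRNA and 14.4 with Sirt6 siRNA, a 2.47-fold difference (log2 1.31, 1.02 to 1.62). Syt11, a synaptotagmin of vesicle traffic, had 1047 and 2049 reads. Its level went from 46.4 to 85.3 normalised RPM (1.84-fold, log2 0.88, 0.77 to 0.99). Both were also higher with Sirt6 siRNA in the TNF pair, where the reads of Syt11 were 770 and 1527.

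Of the firm genes on this side, 3 belong to the cytoskeleton or membrane skeleton. Map1a, which encodes a microtubule-associated protein of neurons, was at 93.6 and 147.6 normalised RPM (1.58-fold, log2 0.66, 0.58 to 0.74). Epb4.1l1, a band 4.1 protein of the membrane skeleton, was at 52.95 and 79.6 (log2 0.59), and the simple-epithelium keratin Krt7 at 50.6 and 76.4 (1.51-fold). Tubb4a, a beta-tubulin, was at 32.0 and 41.3 (1.29-fold). Of the 16 tubulin and stathmin genes described, Map1a and Tubb4a rose and none fell, and the median log2 ratio was 0.022. The list as a whole therefore sat close to the -0.009 of all genes.

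The 10 others included a Wnt ligand, an integrin subunit and 2 receptors. Itgb8, the integrin subunit that with its alpha partner activates latent TGF-beta, was at 9.12 and 17.99 normalised RPM (1.96-fold, log2 0.97, 0.74 to 1.23). The matrix glycoprotein gene Thbs3 was at 9.21 and 19.2 (2.07-fold), the Wnt ligand gene Wnt10a at 19.3 and 34.5 (1.79-fold), and the semaphorin receptor gene Plxna4 at 49.3 and 75.1 (1.52-fold). Npy1r, a receptor for neuropeptide Y, was at 8.68 and 14.7 (1.69-fold, log2 0.76, 0.51 to 1.02). Eno2, the neuronal enolase, was at 5.75 and 11.2 (1.94-fold, log2 0.96, 0.66 to 1.28). Ctxn1, a small neuronal membrane protein gene, was at 21.1 and 38.3 (1.81-fold). The bicarbonate transporter gene Slc4a8 was 1.70-fold higher, Thsd7a 1.59-fold and Tmem108 1.51-fold. Tmem108 shares 14.2% of its 50-base sequences with transcripts of other genes.

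Besides Sirt6, Ly6a and Ift20 were the genes more than 2-fold lower. Ly6a, the interferon-inducible surface protein also called Sca-1, had 423 reads with control siRNA and 185 with Sirt6 siRNA, or 18.7 and 7.70 normalised RPM (2.42-fold lower, log2 -1.27, -1.54 to -1.03). Of its 50-base sequences 18.97% also occur in other genes. Ift20, a subunit of the intraflagellar transport machinery of cilia, had 877 and 416 reads, or 38.8 and 17.3 normalised RPM (2.24-fold lower, log2 -1.16, -1.34 to -0.99). Its decline was nearly as large as that of the targeted gene, and its interval was narrower.

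The next firm genes on the lower side have varied roles. Has2, a hyaluronan synthase, was at 21.3 and 10.7 normalised RPM (1.99-fold lower, log2 -0.99, -1.22 to -0.77). Slc25a32, the mitochondrial folate carrier, was at 15.4 and 8.00 (1.91-fold lower), the sphingomyelin synthase gene Sgms2 at 53.5 and 33.7 (1.58-fold lower), and the carboxylesterase gene Ces2e at 118.5 and 76.0 (1.56-fold lower). Zak, a kinase activated by stalled ribosomes, was at 202.5 and 118.5 (1.71-fold lower, log2 -0.77, -0.84 to -0.70). Prune2 was at 17.4 and 8.66 (log2 -0.999, -1.26 to -0.76), the cyclophilin gene Ppic at 72.6 and 41.2 (-0.82, -0.93 to -0.70), and Styk1, a kinase-like receptor gene, at 11.6 and 6.62 (-0.81, -1.11 to -0.53).

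**Figure D2:**
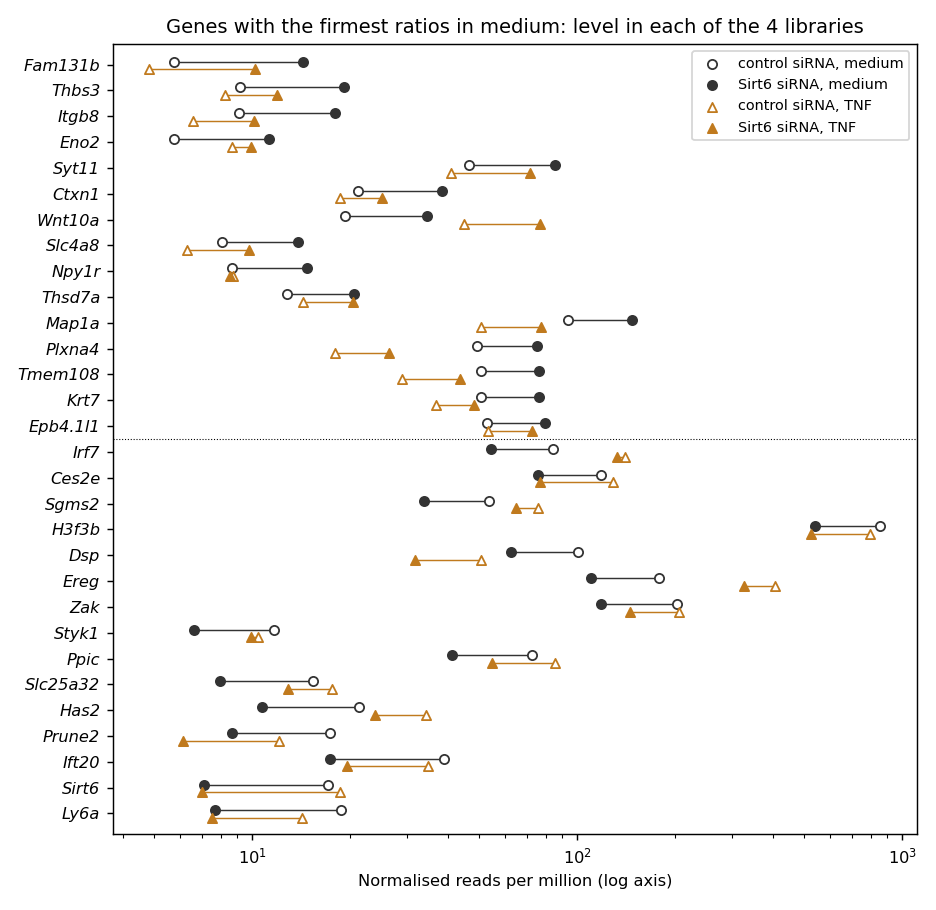
Normalised RPM (horizontal log axis) in each of the 4 libraries for the 15 genes with the firmest higher ratio in medium (above the dotted line) and the 15 with the firmest lower ratio (below it). Circles are the medium pair and triangles the TNF pair, open for control siRNA and filled for Sirt6 siRNA, and Npy1r is the 1 gene of the 30 whose triangles lie the other way round from its circles.

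Deeply read genes give the narrowest intervals. H3f3b, which encodes a histone H3 variant placed in chromatin outside replication, had 19333 reads with control siRNA and 12964 with Sirt6 siRNA in medium, or 855.9 and 539.8 normalised RPM (1.59-fold lower, log2 -0.66, -0.70 to -0.63). Of the 883 genes above 5000 reads it was the 1 past 1.5-fold. The paired keratins Krt18 and Krt8 were at 613.7 and 434.1 (1.41-fold lower) and at 657.5 and 496.9 (1.32-fold lower), and 29.7% of the 50-base sequences of Krt8 are shared with other genes. Ahnak, a very large scaffold protein gene, was at 2530 and 1865 (1.36-fold lower), the actin crosslinker gene Flna at 2031 and 1600 (1.27-fold lower), the basement membrane collagen gene Col4a1 at 863.7 and 637.1 (1.36-fold lower), and the cyclin gene Ccnd1 at 299.6 and 228.3 (1.31-fold lower). On the higher side stood Podxl, a sialomucin of the apical surface, at 383.7 and 567.4 (1.48-fold), the AP-1 subunit gene Jund at 212.4 and 290.2 (1.37-fold), and the desaturase gene Scd2 at 862.1 and 1087 (1.26-fold). The other deeply read gene that rose is an unnamed gene model. Jund shares 48.3% and Ccnd1 21.6% of their sequence with other genes, so their reads are less certain.

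Interferon-stimulated genes leaned lower in medium. Of 48 described, 13 fell and none rose, 46 had a log2 ratio below 0, and the median was -0.216 against -0.009 for all genes. The intervals of 33 lay wholly below 0, and those of none wholly above it. Among all 10625 genes described, 47.2% lay above 0, and 2218 had an interval wholly below 0 and 1846 one wholly above. Promoters of 4 of the 13, from RefSeq, are printed here because they hold the letters GAAANNGAA on either strand, the core of the element bound by interferon-activated factors. They were chosen after the values were seen. Each is the 180 bases before the transcript start, 5′ to 3′ on the strand of the gene, in build GRCm38.p6, with the motif in capitals. Ifit3 lies at chr19:34583349-34583528 (+), Gbp2 at chr3:142620483-142620662 (+), Isg15 at chr4:156200819-156200998 (-) and Irgm1 at chr11:48871421-48871600 (-).
Ifit3: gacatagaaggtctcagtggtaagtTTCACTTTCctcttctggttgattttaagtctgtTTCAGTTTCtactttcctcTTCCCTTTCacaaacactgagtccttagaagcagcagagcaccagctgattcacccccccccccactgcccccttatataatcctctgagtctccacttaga
Gbp2: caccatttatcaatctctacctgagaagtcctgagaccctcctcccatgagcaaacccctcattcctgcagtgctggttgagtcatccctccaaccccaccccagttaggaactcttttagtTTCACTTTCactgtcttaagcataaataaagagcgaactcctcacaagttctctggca
Isg15: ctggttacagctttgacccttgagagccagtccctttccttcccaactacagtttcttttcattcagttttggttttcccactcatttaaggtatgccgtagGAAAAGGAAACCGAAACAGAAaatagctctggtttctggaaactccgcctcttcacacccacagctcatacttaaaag
Irgm1: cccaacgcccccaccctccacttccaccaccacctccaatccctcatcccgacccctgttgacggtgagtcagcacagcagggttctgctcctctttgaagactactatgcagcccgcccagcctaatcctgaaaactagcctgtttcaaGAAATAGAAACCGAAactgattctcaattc

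The motif was found in the 250 bases before the start for 16 of the 38 interferon-stimulated genes with a promoter entry (42.1%) and for 6 of the 10 of these that fell, against 2211 of 27025 genes in all (8.18%) and 523 of the 7240 described genes with an entry (7.22%). The list was drawn up from genes known to answer interferon, so this share describes the list and not the silencing. A match is a stretch of letters and was not tested as a binding site.

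Among the interferon genes, Cmpk2, a mitochondrial nucleotide kinase, was at 25.01 and 15.4 normalised RPM (1.62-fold lower, log2 -0.69, -0.89 to -0.50). Irf7, the transcription factor that amplifies interferon production, was at 84.5 and 54.2 (1.56-fold lower, log2 -0.64, -0.74 to -0.54). Ifit3, an antiviral protein, was at 35.7 and 23.9 (1.49-fold lower), with 51.2% of its sequence shared with other genes. Usp18, which removes ISG15 from proteins, was at 48.5 and 34.5 (1.40-fold lower), and Eif2ak2, the RNA-activated kinase PKR, at 89.8 and 67.4 (1.33-fold lower). Of the other genes whose promoters are printed, Gbp2 was at 41.7 and 30.0 (1.39-fold lower), Isg15 at 90.1 and 71.3 (1.26-fold lower) and Irgm1 at 187.3 and 149.2 (1.26-fold lower). The signal transducer gene Stat2 and its partner Irf9 had intervals that held 0. Stat2 was at 44.5 and 41.8 (log2 -0.09, -0.22 to 0.04) and Irf9 at 42.1 and 38.9 (-0.11, -0.25 to 0.02). The antigen transporter gene Tap1 was at 137.5 and 138.9 (0.01, -0.06 to 0.09). Immunoproteasome genes Psmb8, Psmb9 and Psmb10 had log2 ratios of -0.01, -0.08 and -0.10, with intervals that held 0.

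Set beside these, the same 48 genes had a median log2 ratio of -0.048 in the TNF pair, where 19 lay above 0 and 1, Trim21, fell. Irf7 stood at 140.3 and 132.4 normalised RPM there (log2 -0.08) and Gbp2 at 226.0 and 224.7 (-0.01). The log2 ratio with TNF minus that in medium was 0.56 for Irf7 (delta-method interval 0.43 to 0.68), 0.57 for Cmpk2 (0.36 to 0.79) and 0.50 for Ifit3 (0.34 to 0.67). These intervals cover counting error in 4 libraries and no replicate spread. All cells had been grown with interferon-γ before transfection, and its part in these levels was not tested.

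NF-kB targets and regulators also leaned lower, with more scatter. Of 30 described, 5 fell and 1 rose, and the median log2 ratio was -0.122 in medium and -0.011 with TNF. Tnfaip3, the inhibitor A20, was at 102.0 and 69.1 normalised RPM (1.48-fold lower), the kinase gene Ikbke at 39.6 and 27.7 (1.43-fold lower) and the metalloprotease gene Mmp3 at 25.2 and 15.9 (1.58-fold lower). Cxcl5, a neutrophil chemokine gene, went the other way, from 126.4 to 174.7 (1.38-fold higher, log2 0.47, 0.40 to 0.54), and it was higher with Sirt6 siRNA in the TNF pair as well (log2 0.63). Rela, which encodes the NF-kB subunit, stood at 124.0 and 123.9 (log2 -0.00, -0.08 to 0.07). Ptx3, a pentraxin of the acute phase, was at 29.6 and 40.6 (1.37-fold higher), the 1 member of 6 in its list that rose.

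Genes of cholesterol synthesis and uptake leaned higher. Of 23 described, 22 had a log2 ratio above 0, 16 had an interval wholly above 0 and none wholly below, and the median was 0.202. Among all 10625 genes described, 47.2% lay above 0, and 1846 had an interval wholly above 0 and 2218 one wholly below. Of the 23 cholesterol genes, 2 rose, Hmgcs1 and Sqle. Hmgcs1, which makes HMG-CoA, was at 110.8 and 157.6 normalised RPM (1.42-fold higher, log2 0.51, 0.43 to 0.58), with 11.6% of its sequence shared. Sqle, the squalene epoxidase, was at 72.6 and 98.8 (1.36-fold higher, log2 0.44, 0.35 to 0.54). Srebf2, the transcription factor of the sterol genes, was at 268.2 and 329.6 (log2 0.30, 0.25 to 0.35). Scap, the escort of SREBP, was the 1 member below 0 (-0.05, -0.13 to 0.04). In the TNF pair the median of the 23 genes was 0.173, with 18 above 0.

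The promoter of Hmgcs1 (GRCm38.p6, chr13:119690171-119690350, +, from RefSeq) is shown because it is the 1 of 16 genes of this list with an entry that holds TCACNCCAC, the letters of a sterol regulatory element, on either strand. Over all genes 331 of 27025 hold it (1.22%). That the other 15 do not have these letters in this window says nothing about SREBP.
Hmgcs1: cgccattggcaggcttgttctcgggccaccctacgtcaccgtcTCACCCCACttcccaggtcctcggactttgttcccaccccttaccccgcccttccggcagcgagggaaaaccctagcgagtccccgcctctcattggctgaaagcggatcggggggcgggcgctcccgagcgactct

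Fatty acid synthesis was mixed, with Scd2 higher, the phosphatidate phosphatase gene Lpin1 at 24.1 and 18.9 normalised RPM (1.27-fold lower), and a median log2 ratio of 0.075 over 21 genes. Genes of glycolysis and glucose uptake had a median of 0.10 over 23 genes, 18 of them above 0 and 14 with an interval wholly above 0. Among all 10625 genes described, 47.2% lay above 0 and 1846 had an interval wholly above 0. Intervals of deeply read members leave out 0 at small ratios, as for Gpi1 (log2 0.05, 0.01 to 0.09). Of the 23, 2 rose, Eno2 and Slc16a3, the latter a lactate exporter at 156.2 and 202.6 normalised RPM (1.30-fold higher, log2 0.37, 0.31 to 0.44). Well-read enzymes of the pathway showed differences under that size. Gapdh was at 1975 and 2186 normalised RPM (log2 0.15, 0.13 to 0.16), Ldha, the lactate dehydrogenase subunit, at 561.3 and 638.4 (0.19, 0.15 to 0.22), and Pfkp, a phosphofructokinase, at 45.0 and 52.6 (0.23, 0.11 to 0.35). The glucose transporter gene Slc2a1 lay on the other side at 118.3 and 106.4 (-0.15, -0.23 to -0.07), and Pkm, pyruvate kinase, at 1956 and 1941 (-0.01, -0.03 to 0.01). Hypoxia response genes as a list had a median of 0.020.

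The unfolded protein response list had a median of 0.128, with 19 of 23 genes above 0 and 2 that rose. Xbp1, a transcription factor of this response, was at 60.4 and 79.8 normalised RPM (1.32-fold higher) and Creld2, an endoplasmic reticulum protein gene, at 52.2 and 67.5 (1.29-fold higher). The chaperone genes Hspa5 (957.3 and 1135, log2 0.24, 0.22 to 0.27) and Calr (804.3 and 945.6, log2 0.23, 0.21 to 0.26) lay below that size. In the TNF pair the list's median was 0.130. The integrated stress response, a neighbouring pathway driven by ATF4, had a median of -0.093 over 24 genes, and 2 fell: Chac1, a glutathione-degrading enzyme gene (15.2 and 9.91, 1.53-fold lower), and the transcription factor gene Atf5 (69.3 and 54.6, 1.27-fold lower).

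**Figure D3:**
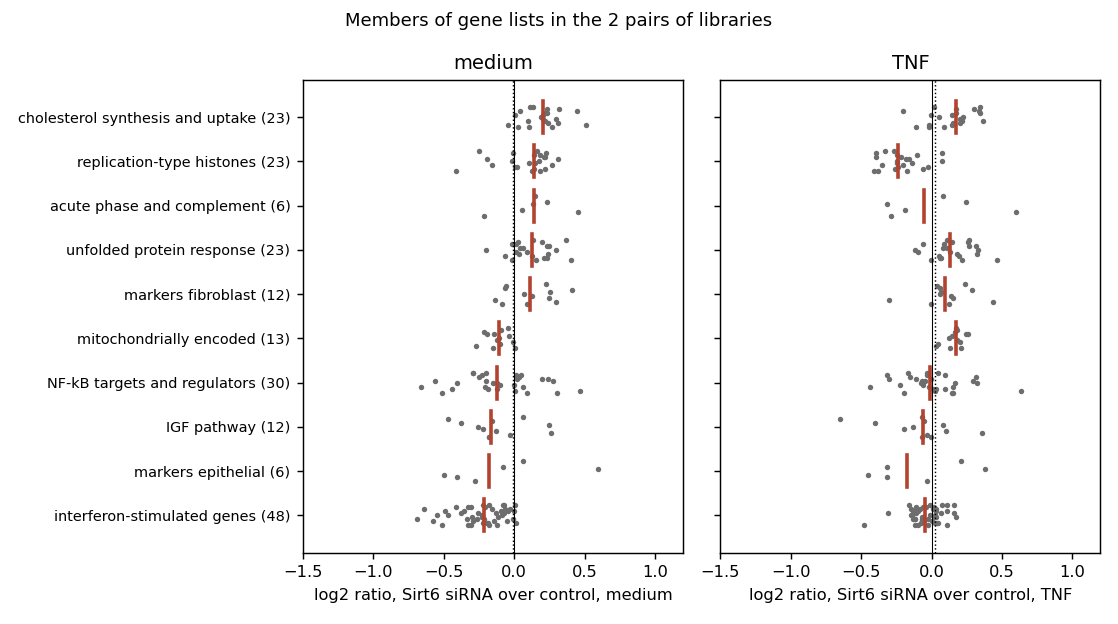
Log2 ratio of Sirt6 siRNA to control siRNA for each described member (grey points) of the gene lists with at least 6 described members and a median at least 0.1 from 0 in medium, in the medium pair (left) and the TNF pair (right). Red bars are list medians, the dotted line is the median of all genes, and the number of members is in brackets. Interferon-stimulated genes have a median of -0.216 in medium and -0.048 with TNF, and cholesterol genes 0.202 and 0.173.

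The insulin-like growth factor list leaned lower in medium, and the EGF family list came just short of a median of -0.1. Of 12 genes of the insulin-like growth factor pathway, 2 fell, 9 were below 0 and the median was -0.167 (-0.061 in the TNF pair). Igfbp6, a binding protein with preference for IGF-II, was at 57.2 and 41.3 normalised RPM (1.38-fold lower), and the ligand gene Igf1 at 13.3 and 10.2 (1.30-fold lower, log2 -0.38, -0.63 to -0.13). The binding protein gene Igfbp4 was at 102.0 and 122.4 (log2 0.26, 0.18 to 0.34). Among 15 EGF family and ErbB genes the median was -0.099 (0.0005 in the TNF pair, the value of Spred2). Of these, 3 fell, the ligand genes Ereg, at 178.8 and 110.7 (1.61-fold lower, log2 -0.69, -0.76 to -0.62), and Tgfa, at 12.2 and 8.79 (1.38-fold lower), and the feedback inhibitor gene Spry1, at 11.4 and 7.91 (1.43-fold lower, with 21.8% of its sequence shared). Egfr, their receptor, was at 209.2 and 198.5 (-0.08, -0.13 to -0.02). The ERK phosphatase gene Dusp4 was at 88.0 and 59.9 (1.47-fold lower), whereas the immediate early genes Fos (14.7 and 21.7, 1.48-fold), Egr1 (86.9 and 117.8, 1.36-fold) and Btg2 (69.4 and 91.4, 1.32-fold) rose. In the 25 immediate early genes 4 rose and 2 fell, with a median of 0.004.

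Epithelial and matrix genes moved both ways. Of the 6 epithelial markers with enough reads Krt18 and Krt8 fell and Krt7 rose, and Krt19 stood at 529.7 and 552.7 normalised RPM (log2 0.06, 0.03 to 0.10). The desmosome genes Dsp, at 100.4 and 62.6 (log2 -0.68, -0.78 to -0.59), and Dsg2, at 27.1 and 20.4 (1.32-fold lower), were the only 2 of 23 junction genes past the rule, and that list's median was -0.039. Cdh1 was at 13.8 and 11.4 (-0.28, -0.52 to -0.04). Of 44 collagens and matrix glycoproteins 3 fell and 2 rose, where 3.33% and 2.96% of all described genes did. The basement membrane genes Col4a1 and Nid1 (140.2 and 102.3, 1.37-fold lower) and the elastic fibre gene Fbln1 (13.9 and 8.62, 1.61-fold lower, log2 -0.69, -0.95 to -0.44) fell, and the fibrillar collagen gene Col1a2 (60.4 and 80.4, 1.33-fold) rose. Acta2, smooth muscle actin, was at 225.0 and 150.5 (1.50-fold lower, log2 -0.58, -0.64 to -0.52). Krt7, Krt8, Krt18 and Acta2 are themselves among the epithelial and smooth muscle markers. The other members of both lists summed to like levels in the 2 libraries. Those left out were picked by their change, and Krt19 makes up most of the epithelial remainder. These sums therefore cannot show whether marker content differed.

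Most other processes tied to SIRT6 in the literature had list medians near that of all genes. Of the lists in this paragraph, that of NRF2 lay farthest from it. The 78 cytosolic ribosomal protein genes had a median of -0.020 and no member past the rule. The 33 genes of DNA double-strand break repair had -0.056, the 46 of DNA replication -0.052, the 37 of mitosis -0.036, and none of these had a member past the rule. The 70 nuclear genes of oxidative phosphorylation had a median of 0.012 with 1 that fell, Atp5f1, an ATP synthase subunit gene (157.1 and 118.2 normalised RPM, 1.33-fold lower). Of 26 NRF2 antioxidant genes 3 fell, among them the quinone reductase gene Nqo1 (32.9 and 23.8, 1.38-fold lower), and 1 rose, and the median was -0.082. Of the 33 genes of the Wnt and R-spondin pathway, Wnt10a and the secreted inhibitor gene Sfrp2 (23.7 and 30.8, 1.30-fold) rose and Ccnd1 fell, with a median of 0.040.

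The remaining lists had few members past the rule. The 76 mitochondrial ribosomal protein genes had a median of 0.003, with Mrps31 and Mrps34 higher and Mrpl18 and Mrpl32 lower. Mrps34 shares 71.8% of its 50-base sequences with transcripts of other genes. The 58 genes of translation initiation and elongation had a median of -0.028, with Eef2k, the kinase that inhibits elongation, at 12.7 and 16.4 normalised RPM (1.29-fold higher) and Eif2ak2, given above, lower. The 20 aminoacyl-tRNA synthetase genes had a median of -0.080, with 16 below 0. Of 29 p53 targets (median -0.007) Btg2 rose and Gadd45a (13.5 and 10.4, 1.29-fold lower) and Ddit4l (25.9 and 20.2, 1.28-fold lower) fell. Of 44 lysosome and autophagy genes (0.039) Npc1, which exports cholesterol from lysosomes, fell from 32.8 to 25.4 (1.29-fold lower). Of 19 genes of MHC class I presentation (-0.033) the proteasome activator gene Psme1 fell from 57.2 to 44.6 (1.28-fold lower). The transferrin gene Trf (19.4 and 25.5, 1.32-fold higher) was the 1 of 20 iron genes (0.014) past the rule, and 59.4% of its sequence is shared. No member passed among the 24 genes of fatty acid oxidation (-0.006), 19 heat shock proteins (0.035), 21 histone deacetylases and acetyltransferases (0.011) and 9 genes of NAD supply and use (0.064). The 10 mesothelial markers described had a median of 0.090, and Krt8 and Krt18 are among them. Over all 49 lists, 5 medians were at least 0.1 and 7 were -0.1 or lower.

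The TNF pair is the only other comparison of these siRNAs, shares no library with the medium pair and differs from it by the cytokine. In it 344 of the same 10625 genes rose (3.24%) and 261 fell (2.46%). Of the 314 genes that rose in medium, 263 (83.8%) had a ratio above 1 with TNF, 102 (32.5%) also rose there and 1, Ldlrad3, fell. Of the 354 that fell in medium, 284 (80.2%) had a ratio below 1 with TNF, 90 (25.4%) also fell and 4 rose (Gpatch1, Prrg1, Rnf138 and Tmem138). Across all 10625 genes the median log2 ratio with TNF was 0.023, so more genes had a ratio above 1 there than below it. The shared genes are 29.7% of those that rose and 34.5% of those that fell with TNF. The TNF pair did not enter the choice of these genes. The median log2 ratio of the 314 was 0.384 in medium and 0.210 with TNF, and that of the 354 was -0.400 and -0.167. Across the 10625 genes the correlation of the 2 ratios was 0.462 (Pearson) and 0.399 (Spearman), which is across genes that share libraries and are not independent replicates.

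**Figure D4:**
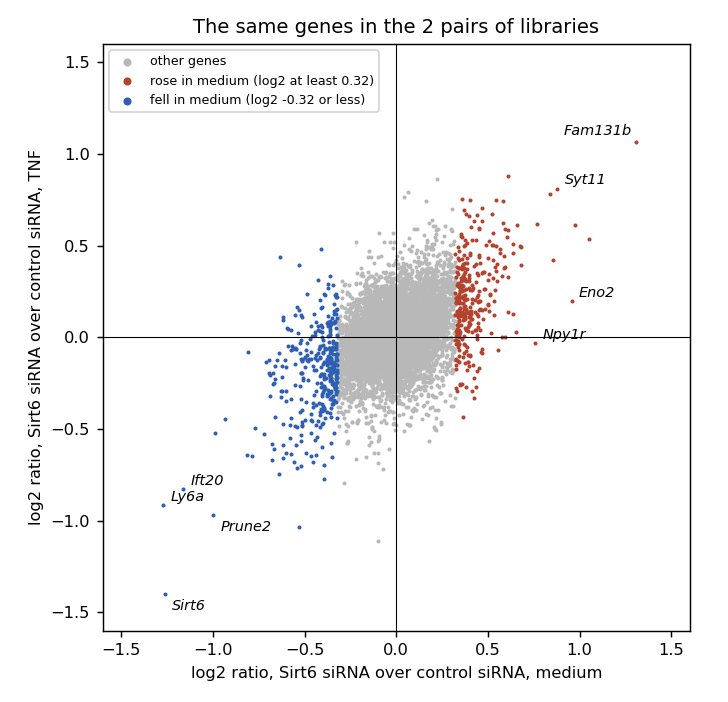
Log2 ratio of Sirt6 siRNA to control siRNA with TNF (vertical axis) against that in medium (horizontal axis) for the 10625 genes. Red and blue points rose or fell in medium. Sirt6, Prune2 and Syt11 have ratios of like size in both pairs, and Ift20 and Ly6a are lower in both (log2 -0.83 and -0.91 with TNF, -1.16 and -1.27 in medium). Npy1r lies near 0 on the vertical axis, and Eno2 lies nearer to 0 on that axis than on the horizontal one.

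Several of the firmest genes had like ratios in both pairs. H3f3b was at 797.2 and 523.3 normalised RPM with TNF (log2 -0.61 against -0.66 in medium), Dsp at 50.4 and 31.7 (-0.67 against -0.68), Prune2 at 12.1 and 6.15 (-0.97 against -0.999), Wnt10a at 44.7 and 76.9 (0.78 against 0.84) and Jund at 182.0 and 248.3 (0.45 in both). For others the ratio with TNF was nearer to 1. Npy1r was at 8.71 and 8.54 with TNF, so that its log2 ratio changed by -0.79 (-1.19 to -0.40), Eno2 at 8.66 and 9.95 (-0.76, -1.18 to -0.34), and Styk1 at 10.5 and 9.90 (0.73, 0.33 to 1.13). For Has2, at 34.3 and 23.8, and Slc25a32, at 17.6 and 12.9, both ratios were below 1 and the changes were 0.47 (0.19 to 0.74) and 0.49 (0.15 to 0.84).

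Ratios in medium also moved with base composition. For the 10482 genes with a transcript GC content, the median log2 ratio went from -0.083 in the tenth of genes with the lowest GC content (median 39.9%) to 0.050 in the tenth with the highest (59.3%). The Spearman correlation with GC content was 0.283 in medium and 0.054 in the TNF pair, given as a description across genes. Genes that rose in medium had a median GC content of 53.2%, those that fell 47.5%, and all described genes 49.7%. With a smooth curve over GC content taken out, the interferon-stimulated genes had a median of -0.196 and the cholesterol genes one of 0.204. The 13 mitochondrially encoded genes, of low GC content, went from -0.107 to -0.010. The part of GC content in the ratio of any single gene was not tested.

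**Figure D5:**
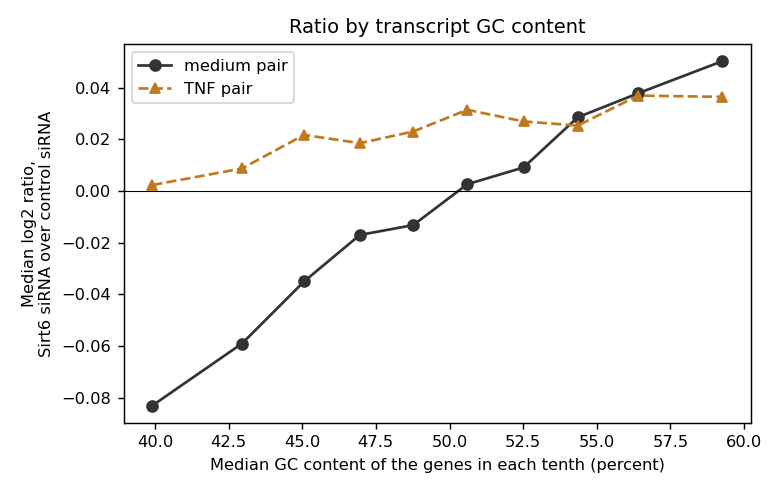
Median log2 ratio of Sirt6 siRNA to control siRNA (vertical axis) in 10 bins of genes by transcript GC content (horizontal axis, percent), for the medium pair (circles) and the TNF pair (triangles). The medium medians run from -0.083 to 0.050, and those with TNF from 0.002 to 0.036.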

How the data were processed

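RNA was sequenced from 4 samples, 1 per group, after selection of polyadenylated RNA, per the labels. The deposited table gives read counts per gene, which are whole numbers, per the file headers. Its deposited values headed RPKM equal the count over the library total to within 0.0006, so they are RPM, and they were not used further. CASAVA, Bowtie 1.0.1 and edgeR were named per the submitters' processing notes, which give no steps here. The build, annotation, read counter and its use of strand are not given in the sources used here. A reference list of gene names covered 27928 identifiers, and 27 names that had become dates were restored through it.

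Counts were scaled by TMM over the 4 libraries (edgeR 4.0.16, R 4.3.3). Log2 ratios used a prior count of 2 reads. Their exact conditional binomial 95% intervals were computed without it. Since reads carried no molecular identifiers, they are not independent molecules, and intervals cover counting error only. Differences between the pairs have delta-method intervals with 0.5 added to each count.

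Alternatives were library totals, DESeq2 1.42.0 size factors, minimums of 100 and 500 reads or none, a loess curve over GC content (span 0.3), 99% intervals, list means, no prior count, and an additive edgeR model (1 residual degree of freedom). Restriction to protein-coding genes of GENCODE M21 was added after seeing the data. The procedures were also run on simulated Poisson counts with the same siRNA effect in both pairs (Python 3.11.15). Those counts hold no spread between cultures, so they cannot show whether the calls would hold in other cultures.

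The comparison, the 49 lists and the rules were chosen with earlier results of these data known. Genes named by rule are Sirt6, the other sirtuins and Rspo1, the 15 each way past 1.5-fold with the interval bound farthest from no change, and by the same measure up to 4 per list past a log2 ratio of 0.32 and up to 6 each way above 5000 reads. Gene models without a name and small RNAs were not named. Other genes were named after their values were seen. Of the 105 genes named by rule, 19 share over 10% and 3 over 50% of their 50-base sequences with transcripts of other genes on either strand. Of the genes described, 844 are processed pseudogenes, of which 25 rose and 11 fell. The values of some list members are not reported here.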

Additional observations from a re-analysis of the deposited data

Results flagged for a closer look

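Flagged here are 3 results for which the ratio of Sirt6 siRNA to control siRNA pointed in opposite directions in the medium and TNF pairs. Other genes did so too, among them Ldlrad3 and Npy1r given above. With 1 library per group none of these differences was tested. Mrpl32, a protein of the mitochondrial ribosome, had a log2 ratio of -0.39 in medium (24.3 and 18.4 normalised RPM with control and Sirt6 siRNA) and 0.23 with TNF (18.8 and 22.1). The 13 mitochondrially encoded genes had a median of -0.107 in medium, with 12 of 13 below 0, and of 0.174 with TNF, with 13 of 13 above 0. They took 1.50% and 1.43% of reads in medium and 1.42% and 1.55% with TNF, and with GC content taken out the medium median was -0.010. The 23 described histone genes of the replication-dependent type, whose messages mostly lack a poly(A) tail, had a median of 0.143 in medium, with 17 above 0, and of -0.236 with TNF, with 21 below 0. Many histone genes are near-identical copies, so their reads cannot be assigned to single genes. The members counted above or below 0 are therefore not independent. Both histone medians cover the described members only, and whether they hold for each histone family was not tested. With GC content taken out the medium median of the histones was 0.050.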

How the results depend on the processing

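No replicate numbers in the labels pair the samples, and the one fit within the medium and TNF pairs is the additive model below. The depth minimum sets the counts. At 1.5-fold, 73 genes passed, against 140 with a minimum of 100 reads (60 higher, 80 lower), 23 with 500 (10 and 13) and 735 with none (327 and 408). At a log2 ratio of 0.32, 668 passed, against 296 with a minimum of 500 reads and 1657 with none (786 and 871), and the 192 genes past it the same way in both pairs became 109 and 330. The additive edgeR model of all 4 libraries called 933 of the described genes at an adjusted p of at most 0.05 (496 higher, 437 lower). It takes its spread (common biological coefficient of variation 0.039) from how far the 2 siRNA ratios differ, not from replicates, and it called 149 of the 314 genes that rose and 194 of the 354 that fell. GC correction gave 68, 574 and 188 for the 3 counts. Library totals, DESeq2 size factors, 99% intervals and protein-coding genes alone left each count within 1.5 times. Mrps31 and Mrps34 dropped under that size with DESeq2 size factors, and Atp5f1, Foxf2 (a target of YAP and TEAD, 19.4 and 25.1 normalised RPM), Fst, Gstp1, Igf1 and Mrps34 with GC correction (Igf1 at -0.28, Atp5f1 at -0.30). Without a depth minimum the epithelial marker median was -0.387 and that of acute phase genes -0.129, from thinly read members.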

Other observations

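Integrins and metalloproteases were mostly near the median of all genes with a few members apart. Besides Itgb8, the integrin subunit gene Itgb3 rose from 42.4 to 53.7 normalised RPM (1.26-fold), and the median log2 ratio of the 12 integrins described was -0.061. The membrane metalloprotease gene Mmp14 rose from 114.0 to 146.7 (1.29-fold), Adamts7 from 39.8 to 51.5 (1.29-fold) and Adam22 from 25.2 to 33.5 (1.33-fold), while Mmp3, given above, fell (log2 -0.66), with a median of 0.006 over 23 genes. In the TCA cycle list, Idh1, the cytosolic isocitrate dehydrogenase, rose from 60.5 to 77.5 (1.28-fold) and Pcx, pyruvate carboxylase, fell from 42.1 to 31.7 (1.33-fold lower). Mycn, a MYC family gene, was at 8.06 and 12.1 (log2 0.58, 0.32 to 0.86), while its list of cofactors and ribosome biogenesis genes had a median of -0.077 over 34 genes. Follistatin, Fst, an activin antagonist gene, fell from 126.4 to 99.02 (1.28-fold lower), and the seryl-tRNA synthetase gene Sars from 153.1 to 119.6 (1.28-fold lower). Across 20 chromosomes the median log2 ratio in medium lay between -0.038 and 0.017.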
